A study of Mus musculus with 9 samples.

Results

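The Notch genes described here comprise 3 receptors (Notch1, Notch2 and Notch3), 2 ligands (Jag1 and Jag2), the DNA-binding effector Rbpj and 4 transcriptional targets (Hes1, Hey1, Heyl and Nrarp). Their coordinates below are those of the count table, on build mm39. These 10 genes were taken by symbol from a count table of 56748 mouse genes. RNA was sequenced from MLO-Y4 cells, an osteocyte-like line derived from the long bones of a mouse, after transwell co-culture with primary articular chondrocytes of C57BL/6J mice. The membrane keeps the cell types apart and lets soluble factors pass, so the comparison asks how osteocyte-like cells respond to factors released by inflamed cartilage cells. The 9 libraries formed 3 groups of 3. In the control group the chondrocytes were not stimulated. In the other groups they had received 10 ng/ml interleukin-1β for 6 h before the co-culture, which lasted 24 h or 48 h. The line was immortalized with a viral large T antigen, and no further genetic change was made in any group.

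The labels give no culture time for the control group, so stimulation and time cannot be told apart in a comparison with control. They name the 48 h samples MLO-Y5, MLO-Y6 and MLO-Y7 in the field for the cell line and the others MLO-Y4, while the protocols name MLO-Y4 for all groups. Nothing in the labels says that the replicates came from separate cultures, so p-values measure the spread between these samples, which may be technical. Total counts per library lay between 12250628 and 18515456. Levels are given as CPM, the counts of a gene relative to its library total, with totals scaled by TMM normalization (trimmed mean of M values). Of 15 osteocyte and osteoblast-lineage markers, 10 had enough reads to test and 3 had 0 counts. Gja1, which encodes the gap junction protein connexin 43, Spp1 and Col1a1 had high counts in every group. Among osteocyte markers, Pdpn (mean 212 CPM in control) and Phex (14.6 CPM) had counts in every library. In contrast, Mepe and Fgf23 had 0 counts in the 9 libraries, Sost had 1 count in all and Dmp1 had 12. Of 12 cartilage markers, 5 (Acan, Matn1, Col9a1, Col9a2 and Cnmd) had 0 counts and Col2a1 had 20 in all libraries together, but the summed level of the list was 1679 to 1714 CPM in control, 1563 to 1647 at 24 h and 2125 to 2213 at 48 h. That sum was mostly Prg4, which encodes lubricin and had a mean of 1574 CPM in control, 1491 at 24 h and 2045 at 48 h. What part this had in the other differences at 48 h was not tested.

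Notch is a receptor that is cut by proteases when a ligand on a neighboring cell pulls on it. The freed intracellular domain enters the nucleus, joins the DNA-binding protein RBPJ and a Mastermind coactivator, and turns on genes of the HES and HEY families of repressors, as well as Nrarp, a feedback inhibitor. Without the intracellular domain RBPJ holds corepressors at the same sites. In bone, Notch signaling restrains osteoblast differentiation, and in osteocytes it influences bone resorption.

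Promoter sequences were taken for 7 of the 10 genes (all but Hes1, Hey1 and Heyl) from the RefSeq set of mouse genome build GRCm38.p6. They were searched on both strands for the core of the RBPJ site (TGGGAA) and a longer form of it (GTGGGAA). The N box (CACNAG) and the E box CACGTG, to which HES and HEY proteins bind, were searched for in the same way. Other E box letters were not searched for. The 250 bases before the start site are given below for Notch1, Notch3 and Rbpj, because the 48 h libraries of these 3 genes lay apart from both other groups. Rbpj has 2 start sites in that set, of which the first is shown. Capitals mark the matched letters.
Notch1: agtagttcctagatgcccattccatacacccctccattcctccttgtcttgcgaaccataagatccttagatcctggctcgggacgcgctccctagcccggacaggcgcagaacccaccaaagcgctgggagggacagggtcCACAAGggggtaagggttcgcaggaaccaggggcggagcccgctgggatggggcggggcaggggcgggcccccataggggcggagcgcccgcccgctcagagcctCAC
Notch3: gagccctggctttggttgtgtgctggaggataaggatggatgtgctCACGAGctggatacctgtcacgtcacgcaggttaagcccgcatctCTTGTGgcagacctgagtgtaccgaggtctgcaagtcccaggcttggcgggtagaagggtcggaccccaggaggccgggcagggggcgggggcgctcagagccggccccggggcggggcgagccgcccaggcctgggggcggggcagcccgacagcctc
Rbpj: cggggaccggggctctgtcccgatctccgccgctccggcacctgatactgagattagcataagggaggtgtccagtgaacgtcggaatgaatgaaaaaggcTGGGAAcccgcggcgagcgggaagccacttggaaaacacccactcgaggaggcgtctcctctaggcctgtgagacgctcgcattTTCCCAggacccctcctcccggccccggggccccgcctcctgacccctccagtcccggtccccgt
These windows lie at chr2:26503823-26504072 (minus strand), chr17:32166891-32167140 (minus strand) and chr5:53590096-53590345 (plus strand) in that build, and each is written in the direction of its gene. Rbpj was the only one of the 7 with the core RBPJ letters, which it held as TGGGAA from base -149 and as TTCCCA on the other strand from base -65, counted from the start site. Among all 32851 windows of 300 bases, 25.6% held the core and 6.38% the longer form. None of the 7 held the longer form. Notch3 held N boxes as CACGAG from base -204 and CTTGTG from base -159. Notch1 held CACAAG from base -108, and an overlapping pair, CACTAG from base -3 and CTAGTG from base -1, that runs past the end of the printed stretch and leaves only CAC in capitals there. N box letters occurred in 42.5% of all windows. The E box letters CACGTG, present in 7.15% of all windows, were found in Nrarp alone of the 7, from base -108.

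The genes spanned a wide range of expression. Dividing CPM by the gene length in the count table (CPM per kilobase) allows genes to be compared with each other, and all levels in this paragraph are on that scale, as the mean of 3 control libraries ± SD. Notch2 was at 45.1 ± 4.97, which exceeded 91.6% of the 13812 genes with enough reads to test. Rbpj followed at 5.75 ± 0.589 and Hes1 at 3.47 ± 0.748. Jag1 was at 1.14 ± 0.118, Notch1 at 0.534 ± 0.0459 and Notch3 at 0.332 ± 0.0815. The libraries of neighbors in this order did not overlap in the control group down to Notch3. Hey1 at 0.0942 ± 0.0717 and Jag2 at 0.0291 ± 0.0258 overlapped with each other and rested on few reads. At 24 h the order from Notch2 to Notch3 was the same, although Notch1 and Notch3 then overlapped. At 48 h Notch3, at 0.880 ± 0.114, stood above Notch1, at 0.367 ± 0.0489, without overlap.

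**Figure D1:**
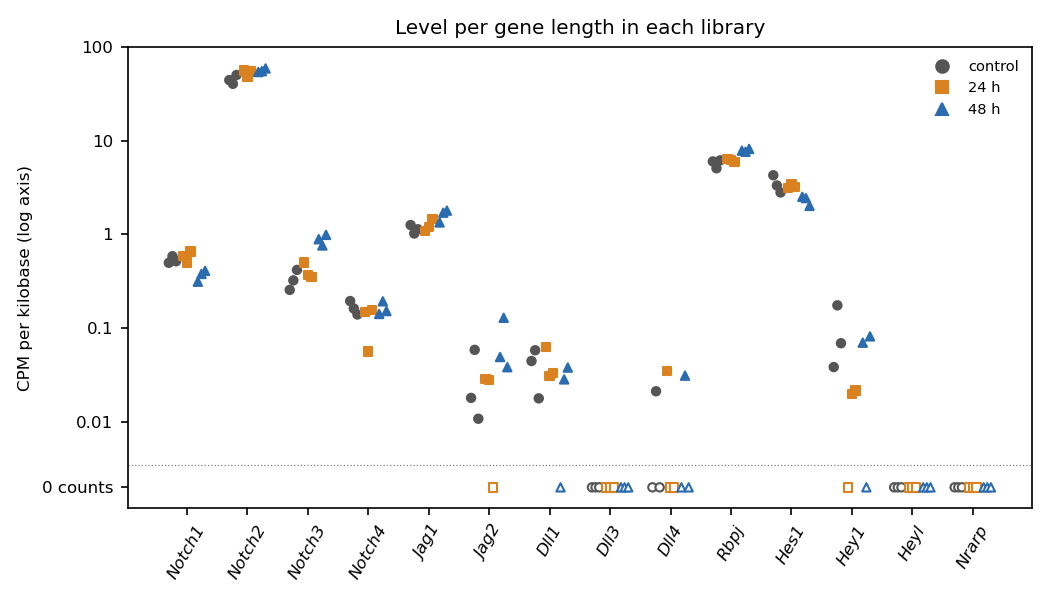
CPM per kilobase of gene length (log axis) in each of 9 libraries for the Notch receptors, ligands, Rbpj and targets; circles are control, squares 24 h and triangles 48 h, and open symbols on the lowest line have 0 counts. Notch2 is far above the other receptors in every library, and Notch3 lies above Notch1 in the 48 h libraries.

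Heyl (chromosome 4, 123127349 to 123143668, plus strand) and Nrarp (chromosome 2, 25070770 to 25073351, plus strand), both targets of the Notch complex, had 0 counts in all 9 libraries. With 138939746 counts in total, 0 counts allow up to 3, or 0.0216 CPM over the pooled libraries and 0.160 to 0.245 CPM in a single library, for counting error only. Other members of the gene family were also at or near 0. Dll3 had 0 counts, Dll4 had 5 and Dll1 had 20 over all libraries, and the target genes Hes5, Hes7 and Hey2 had 1, 11 and 14. Notch4 had 168 counts and was tested, but no comparison called it different.

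Differences between groups were tested with the quasi-likelihood test of edgeR on the counts, and a gene with a Benjamini-Hochberg adjusted p under 0.05 over all 13812 tested genes is called different. Of the 10 Notch genes, 6 had enough reads for the test. After 48 h all 6 differed from control, 4 being higher (Notch2, Notch3, Jag1 and Rbpj) and 2 lower (Notch1 and Hes1), and in each of the 6 the 48 h libraries lay outside the range of the control libraries. The same comparison called 46.4% of all tested genes (22% higher and 24.4% lower), and 53.1% of all tested genes had no overlap (25.7% higher and 27.4% lower). The median log2 fold change was 0.38 for the 6 genes and -0.0022 for all tested genes. After 24 h none of the 6 was called, against 6.15% of all tested genes (3.25% higher and 2.9% lower). At 24 h no gene of the 6 was without overlap, against 21.5% of all tested genes. Notch2 had the smallest unadjusted p of the 6 at 24 h (0.00384 with edgeR). DESeq2, another count model, called 1 of the 6 at 24 h, Notch2. The share of all tested genes that DESeq2 called at 24 h is not given here. Between 48 h and 24 h, 5 of the 6 were called (3 higher and 2 lower at 48 h), against 49.1% of all tested genes (23.7% higher and 25.4% lower). Both lower genes and 2 of the higher ones, Notch3 and Rbpj, had no overlap between these times, against 59.4% of all tested genes (29.1% higher and 30.3% lower). The comparisons with control share the control libraries. In these bulk samples fewer cells with a transcript and less transcript per cell cannot be told apart.

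**Figure D2:**
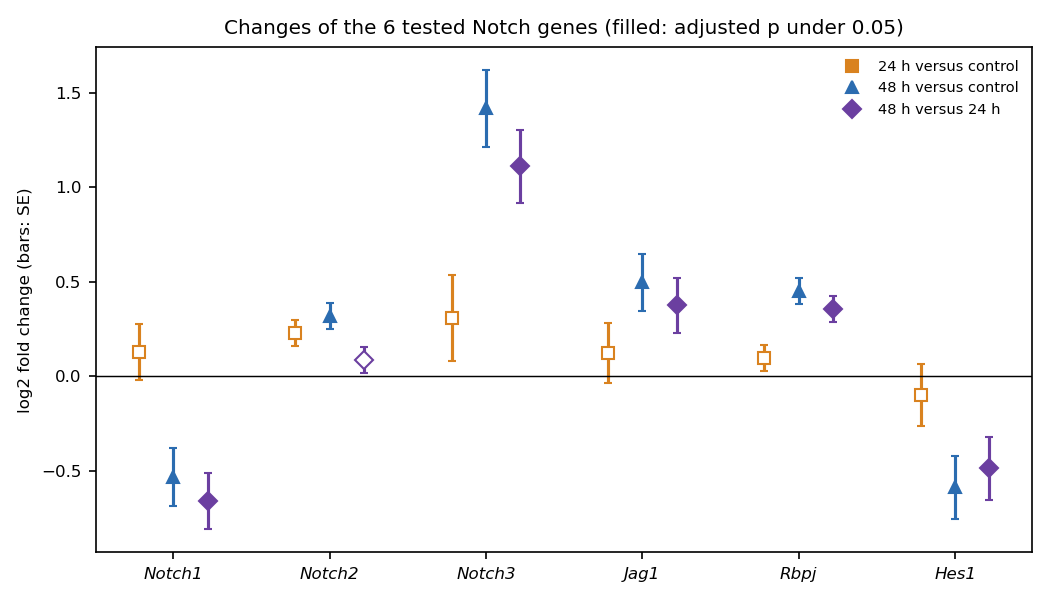
Log2 fold change (vertical axis, bars are standard errors) of the 6 tested Notch genes for 24 h versus control (squares), 48 h versus control (triangles) and 48 h versus 24 h (diamonds), filled where the adjusted p is under 0.05. The squares are all open, and the triangles are all filled, with 4 above and 2 below 0.

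Among the receptors, Notch3 had the largest difference. It lies on chromosome 17 (32339794 to 32385826, minus strand). Notch3 is best known from vascular smooth muscle and pericytes. Its level was 2.07, 2.61 and 3.38 CPM in the control libraries, 4.07, 2.99 and 2.82 CPM at 24 h and 7.19, 6.17 and 8.00 CPM at 48 h. All 48 h libraries lay above every other library, while control and 24 h overlapped. Notch3 was 2.67-fold higher at 48 h than in control (log2 fold change 1.42, SE 0.20, adjusted p = 1.42e-05 with edgeR) and 2.16-fold higher than at 24 h (log2 fold change 1.11, SE 0.19, adjusted p = 0.000105). The difference between 24 h and control was 0.31 on the log2 scale (SE 0.23, adjusted p = 0.522).

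A gene on the opposite strand overlaps Notch3. Gm17276, a long noncoding RNA on chromosome 17 (32332385 to 32360817, plus strand), shares 804 exonic bases with it in the GENCODE annotation, 8.92% of the exonic bases of Notch3. Its level was 3.14, 3.19 and 3.46 CPM in control, 3.80, 3.64 and 4.23 CPM at 24 h and 8.85, 6.82 and 8.00 CPM at 48 h. Here too the 48 h libraries were above all others, and the log2 fold change from control was 1.28 (SE 0.16, adjusted p = 3.53e-06). The libraries were made with a directional kit, but whether the counting used the strand is not given in the sources used here. Without it, reads from these 2 genes in the shared bases cannot be told apart.

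**Figure D3:**
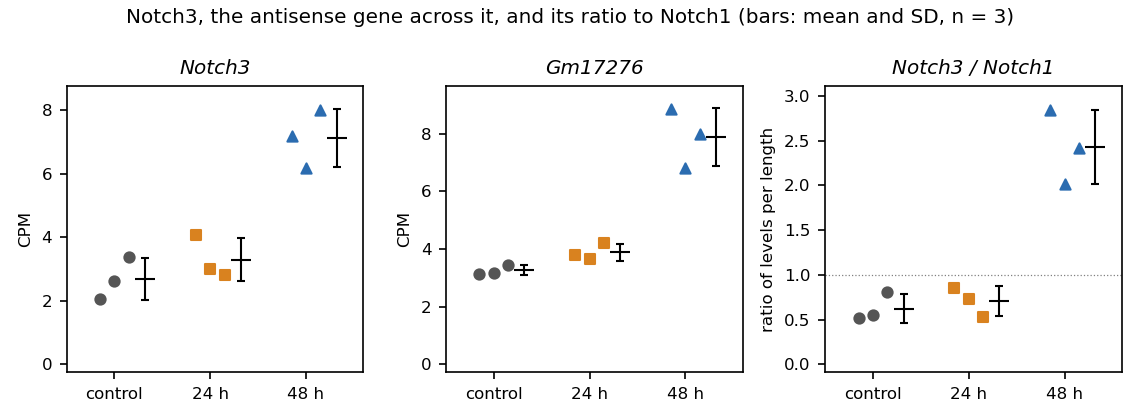
CPM of Notch3 (left) and of the antisense gene Gm17276 (middle), and the ratio of Notch3 to Notch1 in CPM per kilobase (right), in each library with mean and SD (n = 3). All 3 measures are higher in each 48 h library than in any other library, and the ratio passes 1 at 48 h only.

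Notch1, a receptor used in many tissues, lies on chromosome 2 (26347915 to 26406675, minus strand). It moved in the other direction. Its level was 7.09, 8.33 and 7.37 CPM in control, 8.33, 7.15 and 9.37 CPM at 24 h and 4.45, 5.39 and 5.81 CPM at 48 h. The 48 h libraries were below all others. Notch1 fell by 0.53 on the log2 scale from control to 48 h (SE 0.15, adjusted p = 0.00751), and it was 0.66 lower at 48 h than at 24 h (SE 0.15, adjusted p = 0.00118). At 24 h its difference from control was 0.13 (adjusted p = 0.707). An antisense gene, 0610009E02Rik, shares 1996 exonic bases with Notch1, 14% of its exonic bases, but it had 153 counts against 958 for Notch1 and differed by 0.48 between 48 h and control (adjusted p = 0.412).

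Notch2, on chromosome 3 (97920843 to 98057677, plus strand), is the receptor whose gain of function in humans causes Hajdu-Cheney syndrome with bone loss. It was at 478, 436 and 543 CPM in control, 603, 515 and 589 CPM at 24 h and 583, 596 and 636 CPM at 48 h. The 48 h libraries lay above the control libraries, and the 24 h libraries overlapped with both groups. Notch2 rose by 0.32 on the log2 scale by 48 h (SE 0.07, adjusted p = 0.0009999). At 24 h the difference was 0.23 (SE 0.07, adjusted p = 0.0583), which missed the threshold here but passed it with DESeq2 (adjusted p = 0.0243). The difference between 48 h and 24 h was 0.09 (SE 0.07, adjusted p = 0.312).

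Notch2 made up most of the receptor level. Per length it held 97.7% to 98.3% of the summed level of the 3 receptors in each library. The ratio of Notch3 to Notch1 per length was 0.514, 0.552 and 0.808 in control, 0.859, 0.736 and 0.529 at 24 h and 2.84, 2.01 and 2.42 at 48 h. The less abundant receptors thus exchanged places at 48 h, with a mean ratio of 0.625 ± 0.160 in control and 2.43 ± 0.414 at 48 h (SD, n = 3). The uncertain split of reads between Notch3 and Gm17276 in their shared bases limits this ratio too. The exact two-sided permutation test gave p = 0.1, the smallest that 3 against 3 allows, and 0.225 after Benjamini-Hochberg adjustment over 18 such tests. The summed receptor level was 45.9 ± 4.99 CPM per kilobase in control, 53.8 ± 4.50 at 24 h and 57.3 ± 2.71 at 48 h, with the same exact p of 0.1 for 48 h versus control. The ratio of Notch2 to Jag1 per length was 39.7 ± 4.56 in control and 35.2 ± 4.41 at 48 h (exact permutation p = 0.3).

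Of the ligands, Jag1 was the one with enough reads for a test. Jagged1 is a membrane-bound ligand that is present in osteoblasts and osteocytes. The gene, on chromosome 2 (136923376 to 136958564, minus strand), was at 7.34, 5.96 and 6.61 CPM in control, 6.33, 6.96 and 8.53 CPM at 24 h and 7.82, 9.94 and 10.5 CPM at 48 h. The 48 h libraries lay above the control libraries, and 1 of the 24 h libraries exceeded the lowest 48 h library. Jag1 rose by 48 h (log2 fold change 0.50, SE 0.15, adjusted p = 0.0114 with edgeR), and this call was lost without 48 h replicate 3 (0.41, adjusted p = 0.0613). Compared with 24 h the log2 fold change was 0.37 (SE 0.15, adjusted p = 0.0429), a call that was lost without any of 4 libraries (24 h replicates 1 and 2 and 48 h replicates 2 and 3, adjusted p between 0.106 and 0.173), with DESeq2 (adjusted p = 0.0622) and with no filter on low counts (adjusted p = 0.0525). At 24 h the difference from control was 0.12 (adjusted p = 0.749).

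Jag2, the other Jagged ligand (chromosome 12, 112871439 to 112893396, minus strand), had 2, 5 and 1 counts in control, 3, 3 and 0 at 24 h and 6, 15 and 5 at 48 h. All 48 h libraries exceeded the 24 h libraries, but control and 48 h overlapped. When the filter on low counts was removed, the log2 fold change of Jag2 was 1.31 at 48 h versus control (SE 0.75, adjusted p = 0.235) and 1.81 at 48 h versus 24 h (SE 0.78, adjusted p = 0.0727). A difference was not detectable at this depth.

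Rbpj, the transcription factor through which Notch receptors act, lies on chromosome 5 (53623494 to 53814704, plus strand). It was at 76.6, 64.8 and 78.7 CPM in control, 80.9, 79.6 and 75.0 CPM at 24 h and 99.8, 97.1 and 104 CPM at 48 h. The 48 h libraries were above all others, and control and 24 h overlapped. Rbpj rose by 0.45 on the log2 scale by 48 h (SE 0.07, adjusted p = 2.42e-05) and differed from 24 h by 0.35 (SE 0.07, adjusted p = 0.000237). At 24 h its difference from control was 0.10 (adjusted p = 0.507).

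Rbpj has a processed pseudogene, Rbpj-ps3 on chromosome 6 (46506288 to 46507728, minus strand), to which 385 to 1047 counts per library were assigned, or 32.7% to 37.8% of the sum of both genes. How reads that match several places were handled is not given in the sources used here, so the split between the genes is uncertain. With the counts of both added, Rbpj was 0.44 above control by 48 h on the log2 scale (adjusted p = 5.71e-05). The value for 24 h was then 0.15 (adjusted p = 0.276). Direction and calls were the same with the pseudogene included. The level of Rbpj per length does not include these reads.

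Hes1 encodes a basic helix-loop-helix repressor and is the target through which Notch activity is often read. On chromosome 16 (29883202 to 29886614, plus strand), it was at 8.72, 6.78 and 5.71 CPM in control, 6.40, 6.96 and 6.55 CPM at 24 h and 5.14, 4.97 and 4.11 CPM at 48 h. The 48 h libraries were below all others, and the 24 h libraries lay within the range of control. Hes1 fell by 0.59 on the log2 scale by 48 h (SE 0.17, adjusted p = 0.00737). Control replicate 1 was the highest library, and without it the log2 fold change was -0.40 and the adjusted p 0.0799. Between 48 h and 24 h the log2 fold change was -0.49 (SE 0.17, adjusted p = 0.0213), which missed the threshold without 24 h replicate 2 (adjusted p = 0.0712) or 48 h replicate 3 (adjusted p = 0.0932). At 24 h it was -0.10 (adjusted p = 0.813). Among the 6 tested genes, the target Hes1 thus had the same direction as the receptor Notch1 at 48 h. Its direction was opposite to that of the ligand Jag1, of Rbpj and of the receptors Notch2 and Notch3.

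Hey1, a related repressor (chromosome 3, 8728419 to 8732316, minus strand), had 2, 7 and 3 counts in control, 0, 1 and 1 at 24 h and 4, 0 and 5 at 48 h. The 24 h libraries were below the control libraries and the 48 h libraries overlapped with both groups. Without the filter on low counts, the log2 fold change at 24 h was -2.52 with an SE of 1.16 (adjusted p = 0.305). These counts are near the floor of 3 and no fold is read from them.

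**Figure D4:**
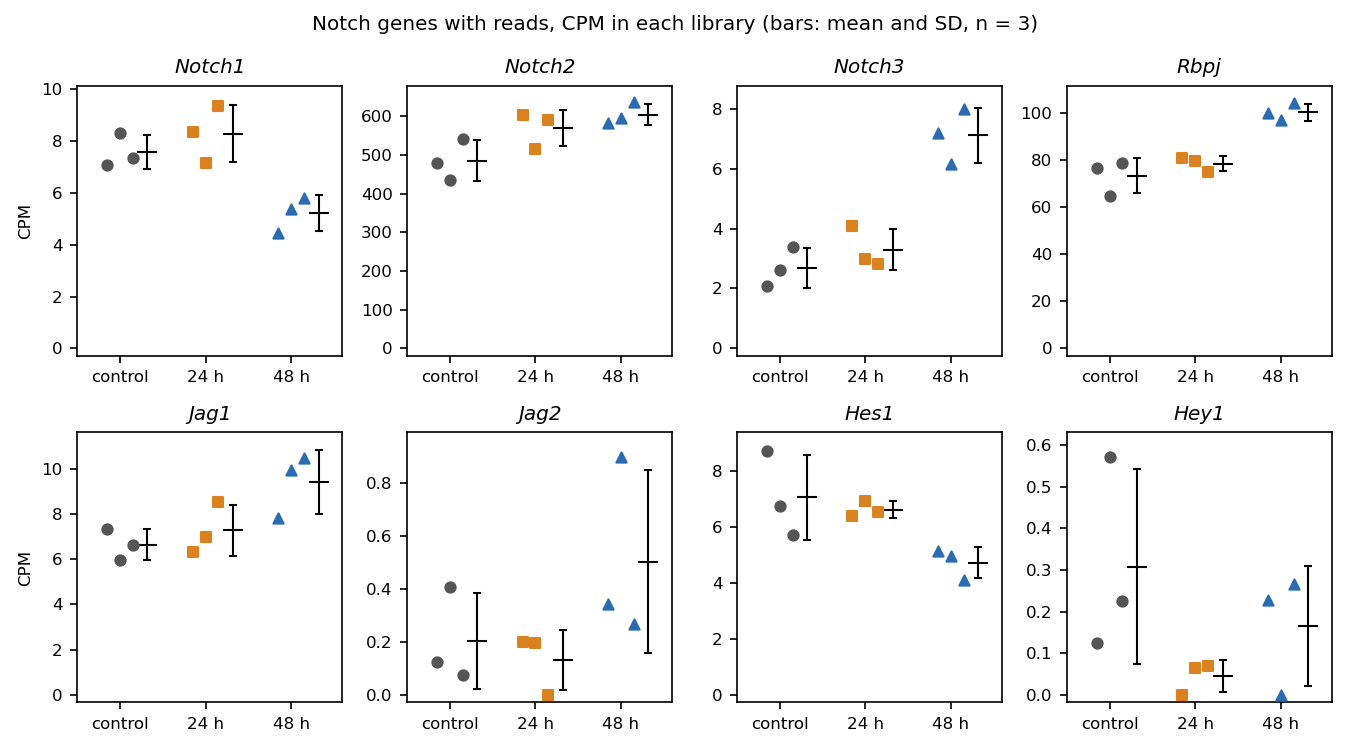
CPM (vertical axis) in each library of the 8 Notch genes with reads, with mean and SD (n = 3); circles are control, squares 24 h and triangles 48 h. The 48 h libraries lie apart from the control libraries for Notch1, Notch2, Notch3, Rbpj, Jag1 and Hes1, and the panels of Jag2 and Hey1 stay under 1 CPM.

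The machinery around these genes was examined with a list of 79 other Notch pathway genes, of which 65 were tested. At 48 h, 24 were higher and 13 lower than control (56.9% of those tested, against 46.4% of all genes), with a median log2 fold change of 0.09. The median absolute change was 0.28, against 0.25 for all tested genes. At 24 h, 1 was higher and 2 were lower (4.62%, against 6.15%). Most roles held genes that rose and genes that fell, as the plot of pathway genes by role shows.

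**Figure D5:**
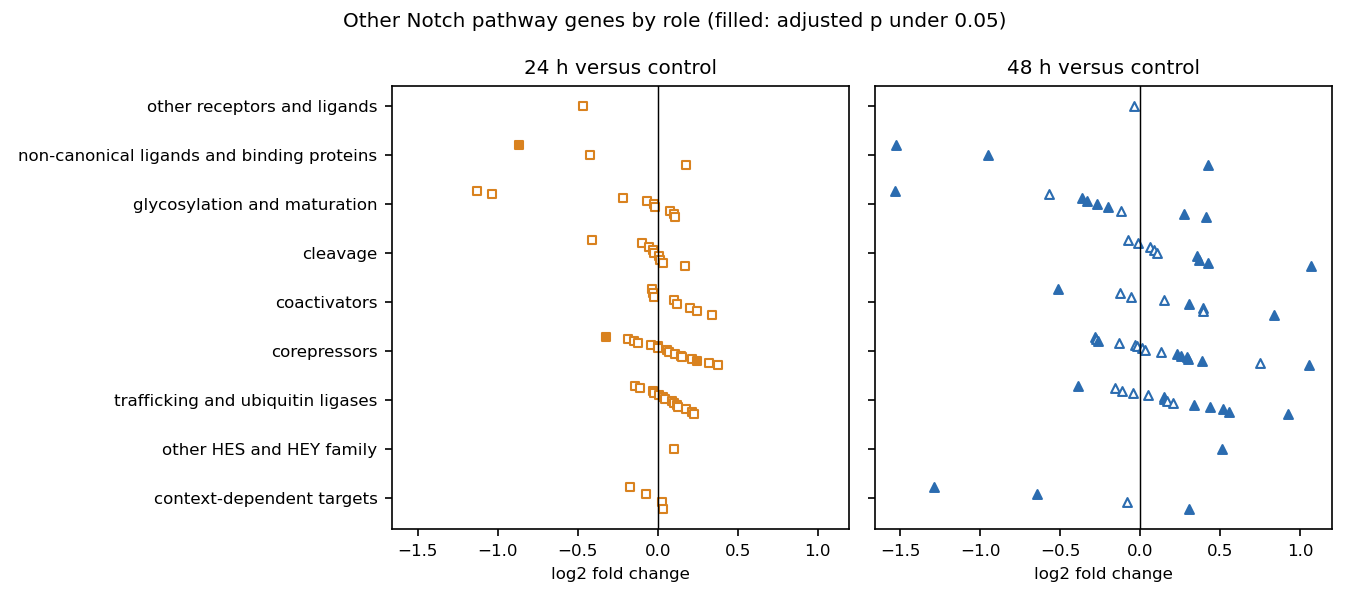
Log2 fold change (horizontal axis) of the 65 tested pathway genes other than the 10 described above, in rows by role, at 24 h versus control (left) and 48 h versus control (right), filled where the adjusted p is under 0.05. At 24 h 3 genes are filled, and at 48 h 37 are, on both sides of 0 in most rows.

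Of 9 genes of receptor cleavage, 4 rose and none fell at 48 h, and none was called at 24 h. The 48 h share of 44.4% was near the 46.4% of all tested genes (22% higher and 24.4% lower). Adam17, a protease that sheds the receptor ectodomain, was at 96.1, 84.1 and 93.6 CPM in control and 119, 119 and 116 CPM at 48 h, and rose by 0.37 on the log2 scale (adjusted p = 3.39e-05). The groups did not overlap. Aph1b and Aph1c encode subunits of gamma-secretase, the complex that frees the intracellular domain. Aph1b rose by 0.42 on the log2 scale (adjusted p = 0.00286), and Aph1c, at about 1 to 3 CPM, rose by 1.07 (adjusted p = 0.00231). They are near-identical copies, so the division of reads between them is uncertain. Adam17 shares its locus with Iah1 on the opposite strand.

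Genes for the sugar modification and maturation of the receptors were called in both directions at 48 h, with 2 of 9 higher and 5 lower (77.8% in all), against 22% higher and 24.4% lower among all tested genes. Furin, the protease that cuts the receptor precursor, rose from 176, 181 and 195 CPM to 239, 235 and 258 CPM (log2 fold change 0.41, adjusted p = 8.86e-06). Pofut1, which adds O-fucose to the receptor, fell by 0.33 (adjusted p = 8.25e-05), and Eogt, which adds O-linked N-acetylglucosamine, fell by 0.36 (adjusted p = 0.000280). The Fringe enzymes extend the O-fucose and alter the choice of ligand. Named after their values were seen, Lfng fell by 1.53 at a level near or under 1 CPM (adjusted p = 0.00506) and Rfng rose by 0.27 (adjusted p = 0.00541). Mfng, the other Fringe gene, was not called (log2 fold change -0.57, adjusted p = 0.247), and its control and 48 h libraries overlapped.

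In the nucleus, 3 of 8 coactivator genes rose and 1 fell at 48 h, a share of 50% that was near the 46.4% of all tested genes. Kat2b was at 69.9, 55.3 and 70.9 CPM in control, 63.3, 71.9 and 57.7 CPM at 24 h and 114, 123 and 114 CPM at 48 h. Its relative Kat2a was at 154, 159 and 156 CPM in control, 151, 151 and 156 CPM at 24 h and 113, 102 and 112 CPM at 48 h. These acetyltransferases of the same family thus separated at 48 h, where Kat2b rose by 0.83 on the log2 scale (adjusted p = 2.72e-07) and Kat2a fell by 0.52 (adjusted p = 2.54e-07). Maml3, a Mastermind coactivator, rose by 0.39 (adjusted p = 0.000890).

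Of 16 corepressor genes, 6 rose and 2 fell at 48 h, again 50% against 46.4% of all tested genes (22% higher and 24.4% lower). Tle2 encodes a Groucho-type corepressor that HES proteins recruit. It was at 23.6, 26.1 and 22.1 CPM in control, 19.8, 18.5 and 19.0 CPM at 24 h and 54.4, 44.5 and 50.1 CPM at 48 h. The 3 groups did not overlap. Tle2 fell by 0.32 at 24 h (adjusted p = 0.0451), and by 48 h it was 1.06 above control (adjusted p = 9.78e-09). The 24 h call was lost in a fit of the groups compared alone (adjusted p = 0.0626) and without any of 6 single libraries (control replicates 1 and 2, each 24 h replicate, and 48 h replicate 3), with adjusted p up to 0.154. Tle3, a relative, rose by 0.25 at 24 h (adjusted p = 0.0451) and was 0.29 above control by 48 h (adjusted p = 0.00225). Its 24 h call was lost in 11 of 16 alternatives, with adjusted p up to 0.152. Kdm5a, a histone demethylase bound by RBPJ, rose by 0.39 at 48 h (adjusted p = 0.00122), and Cir1, an RBPJ-interacting corepressor, rose by 0.30 (adjusted p = 0.00819). Both overlap protein-coding genes on the other strand.

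Secreted or non-canonical binding partners held the called pathway gene with the largest change at 24 h. Ccn3, a matricellular protein that binds Notch1, was at 19.3, 14.1 and 17.5 CPM in control, 8.40, 10.7 and 9.02 CPM at 24 h and 23.6, 24.6 and 20.5 CPM at 48 h. The 24 h libraries lay below and the 48 h libraries above the control libraries. Ccn3 fell by 0.87 at 24 h (SE 0.13, adjusted p = 0.000209), and by 48 h it was 0.42 above control (adjusted p = 0.00564). Dlk2 fell by 1.53 at 48 h (adjusted p = 0.00396) and Egfl7 fell by 0.95 (adjusted p = 0.0160), both at a few CPM and both overlapping a protein-coding gene with more counts on the other strand. Without 48 h replicate 1 the Dlk2 value was -2.29 (adjusted p = 0.000253), and without control replicate 1 it was -1.15 (adjusted p = 0.0496). The Egfl7 call was lost without control replicate 2 (adjusted p = 0.0793) or 48 h replicate 2 (adjusted p = 0.0645).

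Among 14 tested genes of receptor and ligand trafficking, 6 rose and 1 fell at 48 h, which is also 50% against 46.4%. Dtx4, a Deltex ubiquitin ligase that acts on Notch, was at 24.3, 23.5 and 22.8 CPM in control, 23.0, 24.5 and 25.3 CPM at 24 h and 45.4, 45.2 and 43.2 CPM at 48 h. It rose by 0.92 at 48 h (adjusted p = 4.96e-09) whereas at 24 h it differed from control by 0.04 (adjusted p = 0.823). Its relative Dtx3 rose by 0.55 (adjusted p = 1.39e-06), and Neurl1a, a ligase for Notch ligands, rose by 0.52 (adjusted p = 0.000894).

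Of the other HES and HEY family genes, Hes6, whose protein opposes HES1, was the only one tested. It was at 14.9, 13.8 and 13.3 CPM in control and 19.2, 22.3 and 18.6 CPM at 48 h, and rose by 0.51 (adjusted p = 0.00111), the reverse of Hes1. Genes that Notch regulates in some tissues also went both ways. Ccnd1, which encodes cyclin D1, was at 251, 231 and 265 CPM in control, 233, 240 and 235 CPM at 24 h and 104, 96.9 and 104 CPM at 48 h. It fell by 1.29 at 48 h (adjusted p = 3.71e-12), and Myc fell by 0.64 (adjusted p = 1.49e-08). Snai2 rose by 0.30 (adjusted p = 0.00593). Many other pathways act on these 3 genes, and Ccnd1 overlaps a gene on the opposite strand.

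The genes whose pattern over the 9 libraries was most like that of 3 Notch genes were sought among 10079 (Notch3) or 10078 (Jag1 and Hes1) protein-coding genes with a mean of at least 5 CPM. For Notch3 they were Sec14l1, Zfp217 and Tbc1d2b, with Pearson correlations of 0.993, 0.988 and 0.982 over 9 libraries. For Jag1 they were Hsdl1 (0.948), Wdr11 (0.923) and the coactivator gene Maml3 (0.919). For Hes1 they were Rheb (0.984), Rbm17 (0.971) and Mmgt2 (0.968). The 9 points share their groups and libraries, and the values are a description of likeness only. The size of the change was not part of the measure, and at 48 h it was 0.17 on the log2 scale for Sec14l1 against 1.42 for Notch3.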

How the data were processed

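RNA of MLO-Y4 cells after transwell co-culture was sequenced in 9 samples (3 control, 3 at 24 h, 3 at 48 h), which were grouped by their labels. The table deposited by the authors holds raw gene counts, made, as the labels and methods state, by trimming paired reads, aligning them to GRCm39 with HISAT2 and counting with featureCounts. The submitters' processing notes give featureCounts 2.06, while the protocol gives another version, and the methods also name RSEM. Use of the strand and the handling of reads with several matches are not given in the sources used here, so counts of overlapping genes, paralogs and pseudogenes are uncertain.

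Counts were analyzed with edgeR 4.0.16 in R 4.3.3. The filterByExpr function with a minimum count of 10 kept 13812 genes, library sizes were scaled by TMM (factors 0.983 to 1.015), and 1 quasi-likelihood model with a term for group was fitted to the 9 libraries, leaving 6 residual degrees of freedom. Benjamini-Hochberg adjustment was made over the tested genes. The SE is the absolute log2 fold change divided by the square root of F. Ratios of receptor levels were compared by exact two-sided permutation tests. The procedure was also run on simulated data with 200 changed genes, but the outcome is not given here, so no error rate is claimed from it. Total counts of 12250628 to 18515456 per library set a floor of 3 counts, 0.160 to 0.245 CPM. Counting noise did not account for the differences within any pair of replicates (chi-square per degree of freedom 2.31 to 8.40). This does not show that the replicates were separate cultures. Each library was kept as a sample.

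The alternatives were DESeq2 size factors, library size only, no filter on low counts, DESeq2 1.42.0, a fit of the groups compared alone, the replicate number as a block, thinning to the shallowest library, and leaving out each library. Adding Rbpj-ps3 to Rbpj was chosen after the data were seen. The 10 genes and all lists were chosen with earlier results of these data known. Besides the 10 genes, the text names from each role list at most 3 called genes per comparison, those with the largest absolute log2 fold change at a mean of at least 1 CPM. Lfng, Mfng and Rfng were named outside this rule. The text also names untested canonical receptors and ligands with their counts, and the 3 genes most like Notch3, Jag1 and Hes1. Exons were taken from GENCODE vM39 on GRCm39, and promoter sequences from RefSeq on GRCm38.p6.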

Additional observations from a re-analysis of the deposited data

Results flagged for a closer look

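The level differed between 24 h and 48 h, by the edgeR test of 48 h versus 24 h (adjusted p under 0.05), for 5 of the 6 tested Notch genes. No unstimulated group is labelled for each time. Time in culture and time with stimulated chondrocytes therefore cannot be told apart in this comparison either. The log2 fold change from 24 h to 48 h was -0.66 for Notch1, 1.11 for Notch3, 0.37 for Jag1, 0.35 for Rbpj and -0.49 for Hes1. The same test called 49.1% of all tested genes.

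Of the 65 other pathway genes tested, 23 were higher and 13 lower at 48 h than at 24 h (55.4%, against 49.1% of all tested genes). The naming rule picks genes that were called in at least 1 comparison, and 26 of its genes differed between the times. That number was largely set by the rule. Ccn3 (1.28) and Tle2 (1.38) were below control at 24 h and above it at 48 h, each a called change. Higher at 48 h than at 24 h were the cleavage genes Aph1c (1.48), Psen2 (0.45), Aph1b (0.44) and Adam17 (0.20), the maturation protease Furin (0.44), the ubiquitin ligases Dtx4 (0.88), Dtx3 (0.58) and Neurl1a (0.40), the coactivators Kat2b (0.86) and Maml3 (0.29), the corepressors Cir1 (0.49) and Kdm5a (0.23), and the regulators Hes6 (0.41) and Snai2 (0.47). Lower were Ccnd1 (-1.22), Egfl7 (-1.13), Dlk2 (-1.10), Myc (-0.67), Neurl1b (-0.60), Kat2a (-0.48), Eogt (-0.47), Rita1 (-0.43), Poglut2 (-0.30) and Pofut1 (-0.27). The Dlk2 call was lost without 24 h replicate 2 (-0.81, adjusted p = 0.175), 48 h replicate 2 (-0.90, adjusted p = 0.120) or 48 h replicate 3 (-0.76, adjusted p = 0.152), and the value was -1.86 without 48 h replicate 1 (adjusted p = 0.00175). The Psen2 call was lost without 24 h replicate 3 (0.39, adjusted p = 0.0519) or 48 h replicate 2 (0.31, adjusted p = 0.0860). Rita1, whose protein carries RBPJ out of the nucleus, overlaps a gene on the opposite strand.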

How the results depend on the processing

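Of the 291 settings tried for single Notch genes, 273 kept direction and side of the threshold, 10 lost a call and 6 gained one. The 2 reversals concerned values that were not called. At 24 h versus control, leaving out 1 library moved Jag1 between -0.0050 (without 24 h replicate 3) and 0.21, and Hes1 between -0.23 and 0.091 (without control replicate 1). All 6 tested genes differed from control at 48 h in each alternative that kept every library. Leaving out 1 library gave 1 to 2 lower genes (1 without control replicate 1, which ended the Hes1 call) and 3 to 4 higher genes (3 without 48 h replicate 3, which ended the Jag1 call). At 24 h, 1 Notch gene, Notch2, was called higher with DESeq2 size factors (adjusted p = 0.0482), with no filter (3.32e-05), with DESeq2 (0.0243), and with the replicate number as a block (0.00802), and 0 to 1 with 1 library left out (1 without control replicate 3, adjusted p = 0.000938, or 24 h replicate 2, adjusted p = 0.0194). Between 48 h and 24 h, 1 to 2 were lower with 1 library left out (1 without 24 h replicate 2 or 48 h replicate 3). Whether replicates with the same number belong together is not given in the sources used here. Deviations of libraries with the same number correlated between -0.049 and 0.077, with 0 of 9 pairs over 0.1. This range lay within that of libraries with different numbers (-0.097 to 0.095). These values do not decide whether the numbers pair the samples, because counting noise also lowers such correlations. With the block, 6 other pathway genes were higher at 24 h, in place of 1. That count was 6 without the filter, 2 with DESeq2, 0 with library size only, with the groups compared alone or after thinning, and 0 to 6 with 1 library left out (6 without control replicate 3). The lower count at 24 h, 2, was 1 with the groups compared alone and 1 to 2 with 1 library left out. The cause of these differences was not tested. Depth limits Jag2, Hey1, Heyl and Nrarp, which had too few reads for a test.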
